A study of Mus musculus with 9 samples.

Results

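The genes described here are Map3k6 and 8 other genes of the stress-activated MAP kinase cascades, 9 of the 54532 genes in the table, chosen by name. Map3k6 heads the list because an earlier analysis of the same libraries had it among the 4 genes that limma called between the libraries labelled SAHH-het and SAHH-WT. Its values in that comparison are therefore a description, and its call there supports nothing. The other 8 encode kinases of the same route, from its relative Map3k5 down to JNK and p38.

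Vascular RNA of 24-week-old C57BL/6 mice was sequenced as 9 libraries, 3 per group, with levels given as FPKM, fragment counts scaled for exon length and sequencing depth. By the labels all 3 groups carried the ApoE-/- background, which makes mice prone to atherosclerosis. As labelled, the SAHH-WT group (ApoE-/-/SAHHWT) kept both SAHH alleles, the SAHH-het group (ApoE-/-/SAHH+/-) carried 1 wild-type allele, and the SAHH-het+betaine group (ApoE-/-/SAHH+/- +Betaine) had the heterozygous genotype and received betaine, a methyl donor. SAHH, encoded by Ahcy, removes S-adenosylhomocysteine, which methyl transfer leaves behind. The sources used here do not say how the alleles were made, what dose of betaine was given or how many animals stand behind a library. The p-values therefore measure only the spread between these libraries, which may be technical.

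MAP kinase cascades are relays in which a MAP3K phosphorylates a MAP2K, which phosphorylates a MAPK. Under oxidative stress, cytokines or osmotic stress the relay ends in the JNK and p38 kinases, which phosphorylate transcription factors such as Jun and Atf2 and further kinases. Map3k5 encodes ASK1, a MAP3K that reduced thioredoxin holds inactive, and Map3k6 encodes its close relative ASK2, which forms a complex with ASK1. In the vessel wall these kinases are studied for their part in inflammation and in the death of endothelial and smooth muscle cells. The relay works by phosphorylation, which was not measured: an mRNA level is not an activity.

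Some libraries stood apart or went against their labels. The libraries labelled SAHH-het had Apoe at 149 to 225 FPKM, against 2.91 to 8.88 FPKM in the other 6, although all were labelled ApoE-/-. Ahcy was at 3.48 to 4.75 FPKM in those same libraries, 7.17 to 11.5 in SAHH-WT, and 7.66 to 9.70 with betaine, whose libraries share the heterozygous label. SAHH-WT 1 held a summed level of 9625 FPKM for 6 adrenal cortex markers, which did not exceed 2.73 FPKM in any other library. All 7 smooth muscle and all 7 endothelial markers were above 0 in every library, and 6 white adipocyte markers summed to 705 to 4049 FPKM in the same libraries. The libraries held 15837596 to 17381977 fragments each, worked out from the FPKM steps. All 9 genes passed the filter of a mean of 0.5 FPKM over the 9 libraries, as did 15610 genes in all.

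Map3k6 (ENSMUSG00000028862, chromosome 4, 133240818 to 133252929, plus strand, GRCm38, protein-coding) was higher in the libraries labelled SAHH-het than in both other groups. It measured 4.48, 3.98 and 4.27 FPKM in libraries 1 to 3 of SAHH-WT, a mean of 4.25 ± 0.252 (SD, n = 3). The libraries labelled SAHH-het had 17.1, 12.0 and 14.3 FPKM (14.5 ± 2.53, SD, n = 3), and those labelled SAHH-het+betaine had 5.88, 5.99 and 5.47 FPKM (5.78 ± 0.274, SD, n = 3). The 3 SAHH-het libraries held the highest levels, the SAHH-het+betaine libraries followed and the SAHH-WT libraries held the lowest, with no overlap between any of the groups. The SAHH-het mean was 3.41 times the SAHH-WT mean and 2.50 times the SAHH-het+betaine mean. The lowest SAHH-het library was 2.01 times the highest of the other 6. These values rest on 312 to 1087 fragments per library.

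For comparison, 483 of the 15610 tested genes (3.09%) had all 3 SAHH-het libraries above all of the other 6, and 12 had them above by at least the Map3k6 factor. In FPKM, the SD of Map3k6 was 5.93% of the mean in SAHH-WT and 4.74% in SAHH-het+betaine. The median over all tested genes was 28.6% and 20.4%. In SAHH-het it was 17.4%, against a median of 28.5%. A gene picked by such a call tends to have a small spread. In bulk tissue, more cells of a type and more RNA per cell cannot be told apart.

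Scaled to the same sum in every library (TPM), Map3k6 measured 16.1, 10.2 and 9.38 in SAHH-WT, 32.5, 32.0 and 29.8 in SAHH-het and 15.2, 11.5 and 9.66 in SAHH-het+betaine. On that scale the SAHH-het libraries still stood above the rest, by a factor of 1.85, and the other groups overlapped. SAHH-WT 1, the library with adrenal genes, was the highest of the other 6 libraries in TPM, though not in FPKM. The SD in TPM was 30.7% of the mean in SAHH-WT, 4.59% in SAHH-het and 23.5% in SAHH-het+betaine.

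**Figure D1:**
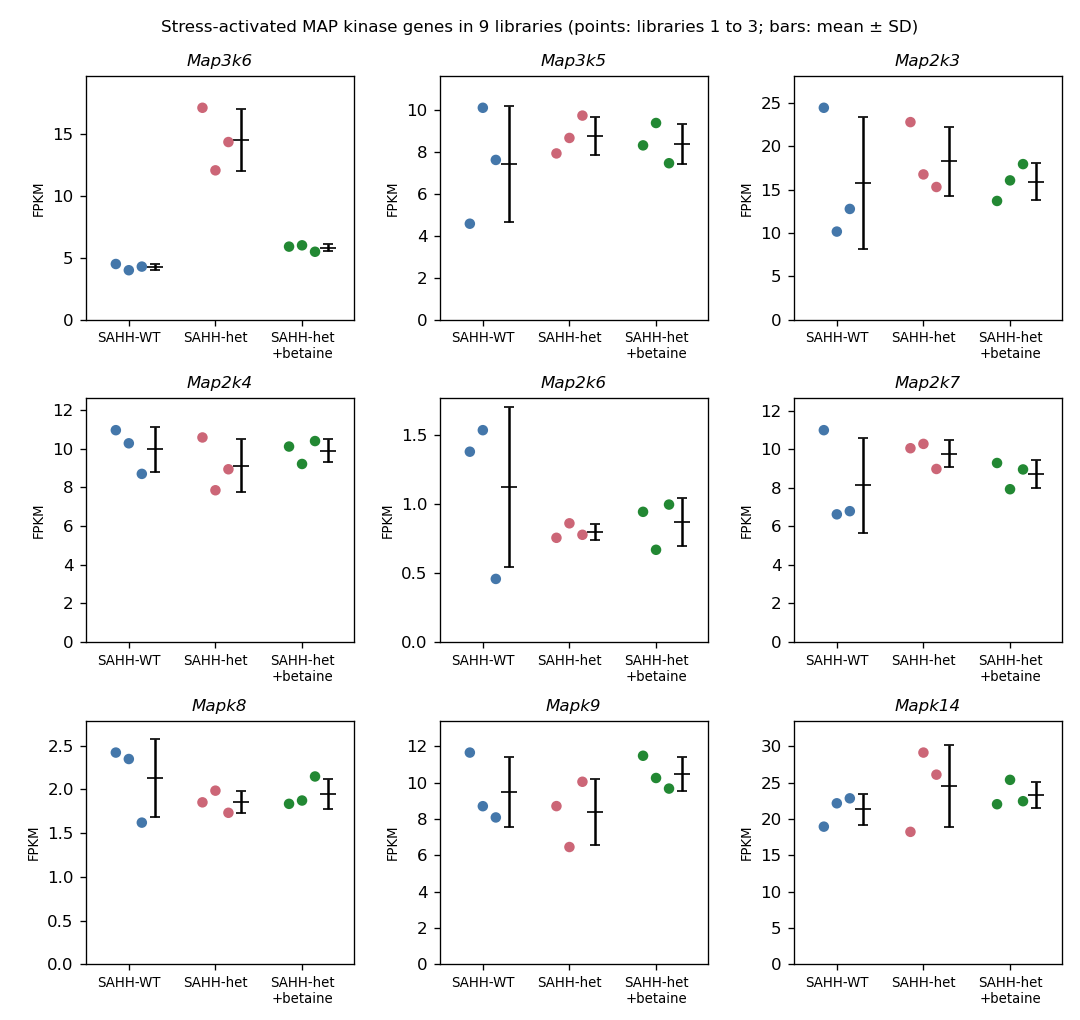
FPKM of the 9 genes (vertical axes, linear from 0) in the 3 groups (horizontal axes); each point is a library, in the order 1 to 3 from left to right, and the bars are the mean ± SD over 3 libraries. Map3k6 is the only panel in which the SAHH-het libraries, at 12.0 to 17.1 FPKM, lie clear of both other groups.

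The promoter windows of Map3k6 and of its relative Map3k5 are shown because these MAP3K genes of 1 family differ in their levels across the groups. Each window runs from 250 bases before the RefSeq start site to 50 bases after it (GRCm38.p6, plus strand, chr4:133240568-133240867 and chr10:19934276-19934575), and capitals mark the motifs found.
Map3k6: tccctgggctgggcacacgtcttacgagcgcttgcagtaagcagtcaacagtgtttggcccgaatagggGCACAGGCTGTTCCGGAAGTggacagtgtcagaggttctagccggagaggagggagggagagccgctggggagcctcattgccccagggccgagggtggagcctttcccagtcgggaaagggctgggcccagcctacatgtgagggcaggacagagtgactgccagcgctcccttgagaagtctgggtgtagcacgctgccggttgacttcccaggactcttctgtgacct
Map3k5: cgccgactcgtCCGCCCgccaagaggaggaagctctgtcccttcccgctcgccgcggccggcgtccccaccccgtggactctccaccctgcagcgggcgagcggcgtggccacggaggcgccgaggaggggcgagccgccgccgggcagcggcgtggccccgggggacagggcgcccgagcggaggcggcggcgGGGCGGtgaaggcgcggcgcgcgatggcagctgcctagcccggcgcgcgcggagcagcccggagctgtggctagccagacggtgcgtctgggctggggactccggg
The search covered 10 motifs on both strands: the TATA box (TATAAA), the CCAAT box (named by its letters), the GC box (GGGCGG), the E-box of clock factors (CACGTG), the AP-1 site (TGANTCA), the cyclic AMP element (TGACGTCA), the ETS core (CCGGAAGT), and the glucocorticoid receptor, heat shock and NF-kappaB elements. The Map3k6 window holds the glucocorticoid receptor element starting 181 bases before the start site, and the ETS core starting 169 bases before it, and they share 1 base. Of 32851 promoter windows of the same length, 0.475% hold the former and 3.89% the latter. The Map3k5 window holds the GC box at 2 places, a motif found in 35.7% of windows. The Map3k6 window has 12 CG pairs and 62.0% G and C, and the Map3k5 window has 47 and 79.7%. Of the promoter windows, 62.1% have at most 12 CG pairs and 98.8% at most 47. A match to letters is a description, and binding was not measured.

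Map3k5 (ENSMUSG00000071369, chromosome 10, 19934472 to 20142753), the gene of ASK1, measured 4.57, 10.1 and 7.61 FPKM in the SAHH-WT libraries, 7.92, 8.65 and 9.72 in SAHH-het, and 8.30, 9.37 and 7.45 with betaine. The groups overlapped, and the lowest value was that of SAHH-WT 1. Its log2 difference between SAHH-het and SAHH-WT was 0.29 (SE 0.26, limma adjusted p = 0.634), on the log2(FPKM + 0.5) scale used throughout, which understates differences of low genes. It was -0.0050 without SAHH-WT 1. The ratio of Map3k6 to Map3k5, both per length of exon, was 0.395 to 0.982 in SAHH-WT, 1.39 to 2.16 in SAHH-het and 0.640 to 0.734 in SAHH-het+betaine, so Map3k6 exceeded Map3k5 in the SAHH-het libraries only, among these 9.

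Among the 17 genes named Map3k, Map3k6 ranked 7 or 8 by FPKM in the SAHH-WT libraries and 6 to 8 in SAHH-het+betaine. Its ranks were 1, 3 and 2 for SAHH-het 1 to 3. Map3k11, a mixed-lineage kinase upstream of JNK, ranked 1 in every library except SAHH-het 1, where it ranked 2. Map3k5 ranked 4 or 5 in every library except SAHH-WT 1, where it ranked 7. Map3k7, the kinase TAK1 that carries cytokine signals, ranked 2 to 5. Map3k13, Map3k19 and Map3k21 had means under 0.5 FPKM and were not tested.

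**Figure D2:**
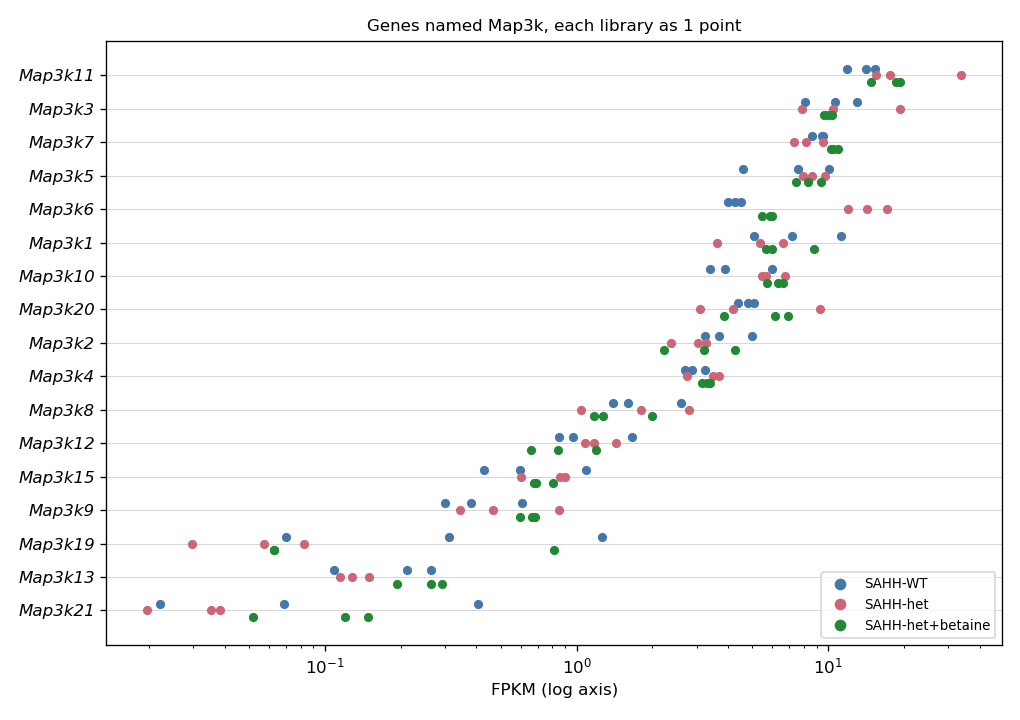
FPKM (horizontal log axis) of the 17 genes named Map3k, ordered by their mean, with each library as 1 point coloured by group. In the Map3k6 line the SAHH-het points lie at 12.0 to 17.1 FPKM, right of the other 6 at 3.98 to 5.99 FPKM.

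The MAP2K genes carry the signal from the MAP3Ks on. Map2k4 and Map2k7 encode MKK4 and MKK7, which phosphorylate JNK. Map2k4 (ENSMUSG00000033352, chromosome 11, 65688243 to 65788297) measured 11.0, 10.3 and 8.70 FPKM in the SAHH-WT libraries, 10.6, 7.85 and 8.93 in SAHH-het, and 10.1, 9.21 and 10.4 with betaine. It stayed within a factor of 1.40 over all 9 libraries. Map2k7 (ENSMUSG00000002948, chromosome 8, 4238740 to 4247897) measured 11.0, 6.62 and 6.79 FPKM in the SAHH-WT libraries, 10.1, 10.3 and 8.98 in SAHH-het, and 9.29, 7.93 and 8.95 with betaine. SAHH-WT 1 held the highest Map2k7 value and the other SAHH-WT libraries the lowest, so the groups overlapped (log2 difference of SAHH-het minus SAHH-WT 0.28, SE 0.21, limma adjusted p = 0.550).

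Map2k3 and Map2k6 encode MKK3 and MKK6, which phosphorylate p38. Map2k3 (ENSMUSG00000018932, chromosome 11, 60932033 to 60952811) measured 24.4, 10.2 and 12.8 FPKM in the SAHH-WT libraries, 22.8, 16.8 and 15.3 in SAHH-het, and 13.7, 16.1 and 17.9 with betaine. The values cut across the groups. The summed level of 6 skeletal muscle markers, a comparison chosen after these values were seen, was 578 to 8752 FPKM in SAHH-WT 1, SAHH-het 1 and 2 and SAHH-het+betaine 2 and 3, and these 5 held the 5 highest Map2k3 values. It was 3.27 to 17.0 FPKM in the other 4 libraries. The part of muscle in the Map2k3 level was not tested. Map2k6 (ENSMUSG00000020623, chromosome 11, 110399122 to 110525522) was the lowest of the 9 genes, at 1.38, 1.54 and 0.458 FPKM in the SAHH-WT libraries, 0.756, 0.861 and 0.778 in SAHH-het, and 0.945, 0.669 and 0.997 with betaine. It rests on 25 to 97 fragments per library, so only large differences could be detected. Map2k3 was 6.61 to 30.1 times Map2k6 in FPKM over the 9 libraries.

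The MAPK genes stand at the end of the relay. Mapk8 and Mapk9 encode JNK1 and JNK2. Mapk8 (ENSMUSG00000021936, chromosome 14, 33377898 to 33447158) measured 2.42, 2.35 and 1.62 FPKM in the SAHH-WT libraries, 1.85, 1.99 and 1.73 in SAHH-het, and 1.84, 1.87 and 2.15 with betaine. Mapk9 (ENSMUSG00000020366, chromosome 11, 49846751 to 49886421) measured 11.7, 8.71 and 8.09 FPKM in the SAHH-WT libraries, 8.71, 6.46 and 10.1 in SAHH-het, and 11.5, 10.3 and 9.68 with betaine. The groups overlapped for both genes, and Mapk9 was 3.25 to 6.26 times Mapk8 in every library.

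Mapk14 (ENSMUSG00000053436, chromosome 17, 28691329 to 28748406) encodes p38 alpha, the p38 kinase found in most tissues. It had the highest mean of the 9 genes, with 18.9, 22.2 and 22.8 FPKM in the SAHH-WT libraries, 18.2, 29.1 and 26.1 in SAHH-het, and 22.0, 25.4 and 22.5 with betaine. SAHH-het 1 was the lowest library and SAHH-het 2 the highest, so the spread within SAHH-het covered both other groups. Mapk14 made up 53.6 to 75.0% of the summed FPKM of the 4 p38 genes in 7 libraries. In SAHH-WT 1 it made up 23.9%, and Mapk13, the gene of p38 delta, 64.2%. Mapk13 measured 50.9 FPKM there and 0.225 to 1.81 FPKM in the other 8 libraries, and SAHH-WT 1 is the library with the adrenal markers. In SAHH-het 1 Mapk14 made up 37.3% and Mapk12 45.9%. Mapk12, the gene of p38 gamma, the form abundant in skeletal muscle, measured 22.5 and 14.3 FPKM in SAHH-het 1 and 2 and 4.31 to 6.78 FPKM in the other 7. The skeletal muscle markers summed to 8752 FPKM in SAHH-het 1, to 578 in SAHH-het 2 and to 2303 in SAHH-WT 1, where Mapk12 was at 6.78 FPKM. The part of adrenal and muscle tissue in these levels was not tested.

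By the labels, setting SAHH-het against SAHH-WT addresses the loss of 1 SAHH allele. The groups also differed in Apoe, at 149 to 225 FPKM against 2.91 to 6.11 FPKM, so the allele and whatever sets the Apoe level cannot be told apart here. By limma, 1 of the 9 genes passed as higher, Map3k6, the gene chosen for it. Over all genes tested 0.0256% passed. It was also the 1 gene of the 9 with an unadjusted p under 0.05 (12.5% of all genes) and with higher SAHH-het values that did not overlap SAHH-WT (8.33%), and nothing is read from these counts. The number passing was 0 when any library except SAHH-het 2 was left out, and 0 with TPM. The log2 difference of Map3k6 was 1.65 in favour of SAHH-het and lay between 1.40 and 1.77 over 21 alternative settings. The other 8 genes had log2 differences of -0.25 (Map2k6) to 0.29 (Map3k5), and limma adjusted p-values of 0.550 to 0.739. At an unadjusted p under 0.05 there were 0 of these 8, and limma-voom on the recovered fragments called 0 of them as well. The widest 95% intervals were those of Map2k3, -0.43 to 1.00, and Map2k6, -0.97 to 0.47. Differences of either sign within these limits are thus not excluded for these genes. With TPM the median of all genes moved to -0.28, and Map3k5, Map2k3, Map2k7 and Mapk14 turned from positive to between -0.0037 and -0.13, above that median.

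**Figure D3:**
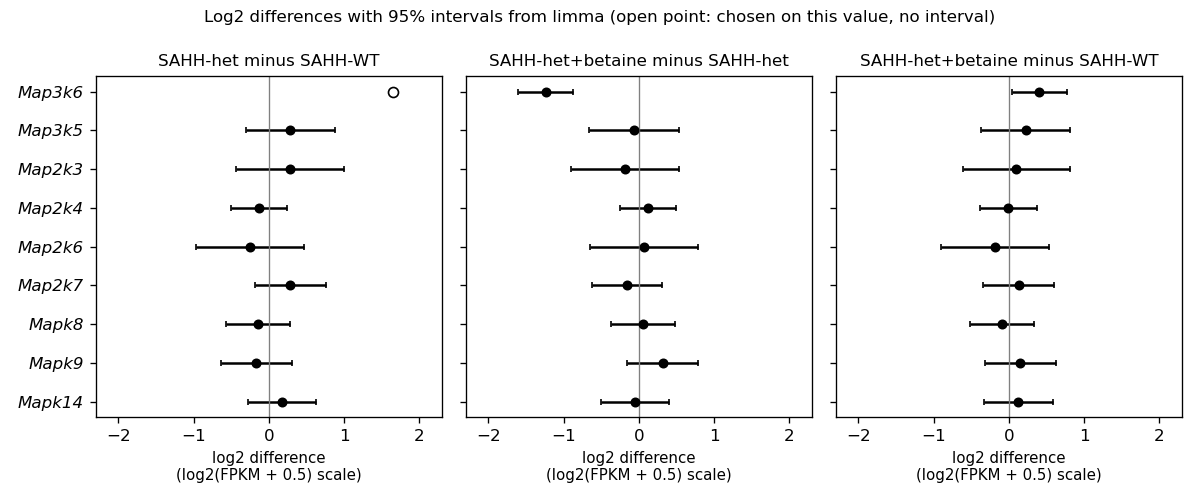
Log2 difference on the log2(FPKM + 0.5) scale (horizontal axes) of the 9 genes in the 3 comparisons, with points for the estimate and bars for the 95% interval from limma. The open point is Map3k6 in the comparison it was chosen on, given without an interval. Every interval of the other 8 genes includes 0.

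The second comparison is, by the labels, that of betaine within 1 genotype. The libraries labelled SAHH-het+betaine had Ahcy at the level of SAHH-WT (means of 8.66 and 8.90 FPKM, against 4.04 FPKM for SAHH-het), and Apoe differed as well, so betaine cannot be told apart from these differences. With SAHH-het+betaine minus SAHH-het, 0 of 9 genes were called by limma and 0 by limma-voom, against 0.0192% of all genes by limma. Map3k6 had a log2 difference of -1.24 (95% interval -1.61 to -0.87, limma adjusted p = 0.11), lower in 3 of 3 libraries, and did not pass. It was the 1 gene of the 9 with an unadjusted p under 0.05 and the 1 whose groups did not overlap, against 8.03% and, in that direction, 8.16% of all genes. This comparison uses the SAHH-het libraries on which Map3k6 was chosen, so it is not independent of that choice. Over 20 alternatives the Map3k6 difference lay between -1.36 and -1.12 and the adjusted p between 0.0898 and 0.694. The other 8 genes had log2 differences of -0.18 (Map2k3) to 0.32 (Mapk9) and adjusted p-values of 0.719 to 0.968.

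The last comparison sets SAHH-het+betaine against SAHH-WT. Of the 9 genes, 0 were called by limma and 0 by limma-voom, against 0% of all genes. Map3k6 was at 5.47 to 5.99 FPKM and 3.98 to 4.48 FPKM in these groups, 1.36 times higher by the means. Its log2 difference was 0.40 (95% interval 0.04 to 0.77, limma adjusted p = 0.618) and did not pass. It was again the 1 gene of the 9 with an unadjusted p under 0.05 (8.01% of all genes) and with no overlap in that direction (9.29%). With TPM its difference was 0.04. Both betaine comparisons share libraries with the first, so the 3 values of a gene are not independent. The other 8 genes had log2 differences of -0.18 (Map2k6) to 0.22 (Map3k5), with adjusted p-values of 0.793 to 0.993, and with TPM, which moved the median of all genes to -0.39, Map3k5, Map2k3, Map2k7, Mapk9 and Mapk14 turned from positive to -0.15 to -0.29.

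Markers of other cell types are given beside these levels. Of 80 marker genes in 13 lists, 0 had all 3 SAHH-het libraries above all of the other 6, against 3.09% of all tested genes. With so low a share nothing is read from this count. No marker sum had that order either. The 7 smooth muscle markers summed to 62.8 to 160 FPKM for SAHH-WT, 60.3 to 153 for SAHH-het and 91.3 to 216 with betaine. The 6 white adipocyte markers summed to 705 to 3231, 3293 to 3933 and 2786 to 4049 FPKM in the same order, and the 6 brown adipocyte markers to 513 to 10302, 6257 to 13281 and 4952 to 13293 FPKM. The 7 endothelial markers summed to 120 to 280, 222 to 524 and 139 to 252 FPKM. By their group means the white and brown adipocyte sums had the same order as Map3k6, with SAHH-het+betaine close to SAHH-het (means of 3553 and 3617 FPKM for white, against 2063 FPKM for SAHH-WT). The white adipocyte sums of SAHH-het and SAHH-WT did not overlap, but the values of Adipoq, Plin1, Cidec and Lep did.

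The sums of 2 lists were lower in SAHH-het than in all other libraries. The 6 adventitial fibroblast markers summed to 74.8 to 95.5 FPKM there, against 124 to 183 FPKM for SAHH-WT and 156 to 202 with betaine. The 6 T cell markers summed to 1.47 to 1.93 FPKM, against 2.58 to 39.3 and 3.33 to 42.9 FPKM. Not among these, the 6 neutrophil markers were at 152 to 1375 FPKM for SAHH-het, 14.5 to 331 for SAHH-WT and 3.14 to 22.5 with betaine, with Ly6g and Camp listed at 0 in 2 libraries each. The part of these contents in the Map3k6 level was not tested.

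The genes with profiles most like that of Map3k6 were searched among 11836 named genes averaging 1 FPKM or more. The measure was the root mean square difference between log2(FPKM + 0.5) profiles over the 9 libraries, each centred on its own mean. On this measure a flat profile lies 0.71 from Map3k6, and 3516 genes lie nearer than that. The nearest was Gstt2, a glutathione S-transferase, at 0.17, with 5.45 to 7.38 FPKM for SAHH-WT, 18.2 to 21.5 for SAHH-het and 7.05 to 8.13 with betaine. Inafm1 followed at 0.23, then Kyat1, a kynurenine aminotransferase, at 0.28 and Pdcd5 at 0.29. Hsd11b1, whose enzyme regenerates active glucocorticoid from its inert form, lay at 0.29, with 12.5 to 18.5, 30.5 to 48.5 and 14.3 to 20.3 FPKM in the same order of groups. Sec31b, Tmem160, Pcbp4, Amdhd2 and Romo1, which encodes a mitochondrial membrane protein linked to reactive oxygen species, completed the 10 at 0.33 to 0.36. All 10 were higher in every SAHH-het library than in any SAHH-WT library, which likeness to Map3k6 all but fixes. Inafm1, Tmem160 and Pdcd5 lie on chromosome 7, as Apoe does (starts at 16272013, 16452779 and 35641982, against 19696109). Romo1 and Kyat1 lie on chromosome 2, as Ahcy does (starts at 156144039 and 30185124, against 155059310). The rest lie on other chromosomes, and the part of position was not tested.

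None of the genes of the cascade was near. Map2k7 was the closest, at rank 1594 (0.63), followed by Map2k3 at 2242 (0.66), Map3k5 at 2957 (0.69) and Mapk14 at 3309 (0.70). Map2k4, Mapk8 and Mapk9, at 0.76 to 0.82, were farther from Map3k6 than a flat profile is. So were most ranked genes, as only 3516 of 11836 were nearer than a flat profile. Map2k6, with a mean under 1 FPKM, was not ranked.

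**Figure D4:**
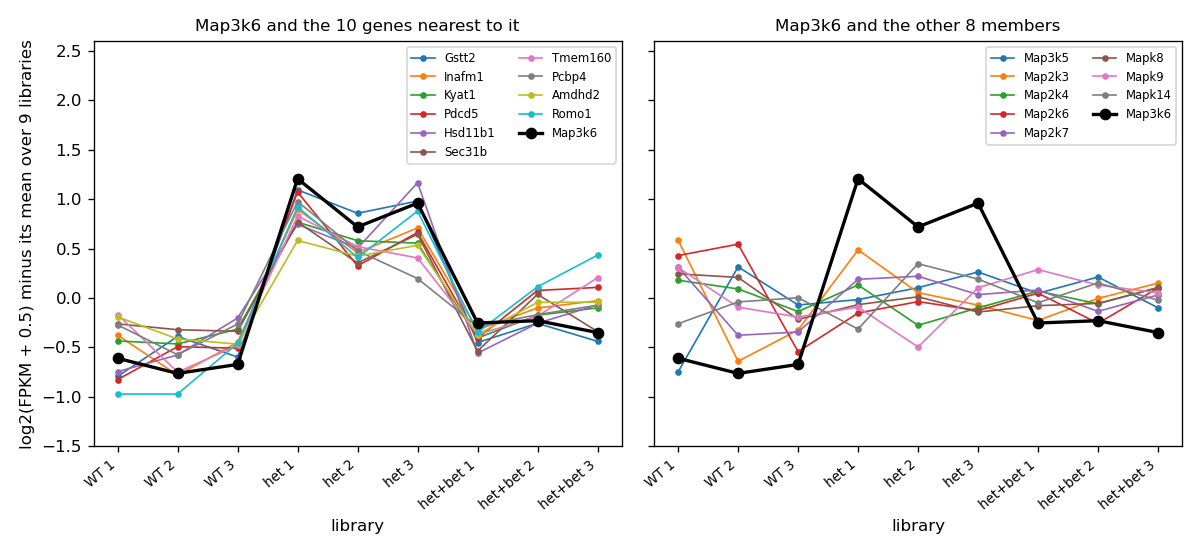
log2(FPKM + 0.5) minus its mean over the 9 libraries (vertical axis) in each library (horizontal axis), with Map3k6 in black beside the 10 genes nearest to it (left) and beside the other 8 genes of the cascade (right). The left profiles step up in the 3 SAHH-het libraries, as they were chosen to, and the right ones do not share that step.

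Neighbours within 50 kb of Map3k6 did not all share its pattern. Cd164l2, whose gene ends 16262 bases before Map3k6 on the same strand, measured 0.698, 0.580 and 1.62 FPKM in the SAHH-WT libraries, 3.45, 3.13 and 2.49 in SAHH-het, and 0.453, 0.799 and 0.376 with betaine. The SAHH-het libraries lay above the other 6, but neither difference passed (log2 1.32, limma adjusted p = 0.282 against SAHH-WT, and -1.77, adjusted p = 0.350, for SAHH-het+betaine minus SAHH-het). Sytl1, on the opposite strand, ends 160 bases from the end of Map3k6. It measured 0.643, 2.59 and 1.73 FPKM in the SAHH-WT libraries, 3.51, 1.62 and 6.09 in SAHH-het, and 1.69, 2.65 and 1.52 with betaine, so its groups overlapped. The sources used here do not say whether the counting used the strand. Wasf2, Tmem222 and Wdtc1, at 8.62 to 30.4 FPKM, overlapped between SAHH-het and SAHH-WT. Wdtc1 was higher in SAHH-het+betaine than in SAHH-WT without overlap (log2 0.85, limma adjusted p = 0.618) and did not pass. In the 3 comparisons 0 of the 5 neighbours tested were called, against 0.0256%, 0.0192% and 0% of all genes.

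The wider pathway was described by 80 further genes, of which 77 passed the filter. Of these, 0 were called in SAHH-het minus SAHH-WT by limma, with 4 at an unadjusted p under 0.05 against 12.5% of all genes, and 0 by limma-voom. Their median log2 difference was 0.08, beside 0.01 over all genes. For SAHH-het+betaine minus SAHH-het 0 were called and 9 had an unadjusted p under 0.05 (0.0192% and 8.03% of all genes), with a median of -0.02 beside -0.01. For SAHH-het+betaine minus SAHH-WT 0 were called and 5 had an unadjusted p under 0.05 (0% and 8.01% of all genes), with a median of -0.08 beside -0.02. limma-voom called 0 in both. No gene named in the next paragraphs passed, and the values are given as such.

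Upstream of the kinases stand the thioredoxins, which hold ASK1 inactive, and Txnip, which binds and inhibits thioredoxin. Txn1 measured 109, 116 and 108 FPKM in the SAHH-WT libraries, 161, 132 and 149 in SAHH-het, and 119, 136 and 144 with betaine. Its SAHH-het values lay above SAHH-WT and overlapped SAHH-het+betaine (log2 difference against SAHH-WT 0.40, limma adjusted p = 0.403). Txnip measured 157, 231 and 162 FPKM in the SAHH-WT libraries, 249, 281 and 327 in SAHH-het, and 326, 416 and 279 with betaine. The libraries of both groups labelled heterozygous lay above SAHH-WT (log2 0.65 and 0.89, limma adjusted p = 0.391 and 0.618). Among the 16 adaptors and activators 9 had a positive and 7 a negative difference in SAHH-het minus SAHH-WT. Those with the smallest p there, Traf6 and Tab3, were lower in SAHH-het, with no overlap with SAHH-WT (log2 -0.35 and -0.40, limma adjusted p = 0.403 and 0.423). Map4k3, a kinase above the MAP3Ks, was at 12.4 to 19.4 FPKM in the libraries labelled SAHH-het and at 10.1 to 11.8 FPKM in those labelled SAHH-het+betaine (log2 -0.50, adjusted p = 0.591).

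Of the 10 phosphatases that switch MAP kinases off, 6 had a positive and 4 a negative difference in SAHH-het minus SAHH-WT. Dusp4, a nuclear phosphatase of ERK and JNK, measured 1.68, 7.79 and 7.48 FPKM in the SAHH-WT libraries, 4.28, 9.27 and 7.38 in SAHH-het, and 14.0, 20.7 and 14.4 with betaine. The SAHH-het+betaine libraries lay above the other 6 (log2 1.22 against SAHH-het, limma adjusted p = 0.609, and 1.67 against SAHH-WT, adjusted p = 0.618). Ppm1a, which dephosphorylates p38 and MAP2Ks, measured 11.3, 11.1 and 11.3 FPKM in the SAHH-WT libraries, 12.0, 8.87 and 15.7 in SAHH-het, and 15.6, 19.1 and 17.3 with betaine. Dusp2, a phosphatase of activated lymphocytes, was 0.906, 5.90 and 3.34 FPKM in SAHH-WT and 0.167 to 0.810 FPKM in SAHH-het (log2 -1.72, adjusted p = 0.376), where the T cell markers were lowest too. The part of lymphocyte content in Dusp2 was not tested.

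Downstream, Ddit3, the transcription factor CHOP, a p38 substrate and stress gene, measured 14.2, 11.7 and 17.2 FPKM in the SAHH-WT libraries, 25.4, 19.7 and 19.3 in SAHH-het, and 10.7, 12.0 and 14.8 with betaine. Of the 16 downstream transcription factors it had the smallest p, with all 3 SAHH-het libraries above the other 6 (log2 0.57, limma adjusted p = 0.369 against SAHH-WT, and -0.76, adjusted p = 0.536, for SAHH-het+betaine minus SAHH-het). Mknk2, a kinase that MAP kinases activate, measured 43.4, 120 and 83.0 FPKM in the SAHH-WT libraries, 130, 101 and 181 in SAHH-het, and 170, 195 and 162 with betaine (log2 1.21 for SAHH-het+betaine minus SAHH-WT, adjusted p = 0.618). In SAHH-WT 1 Jun was at 46.9 FPKM and Fos at 24.4 FPKM, against 10.3 to 21.0 and 1.46 to 9.76 FPKM elsewhere. Jun and Fos are named after their values were seen.

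The ERK cascades, the growth-factor branch of the MAP kinases, served as the nearest comparison. Of 9 genes 0 were called in any of the 3 comparisons by limma, and 2, 1 and 0 had an unadjusted p under 0.05, against 12.5%, 8.03% and 8.01% of all genes. Mapk3, the gene of ERK1, measured 53.2, 40.7 and 54.1 FPKM in the SAHH-WT libraries, 83.3, 90.2 and 69.8 in SAHH-het, and 45.0 to 65.0 with betaine. Its SAHH-het libraries lay above the other 6 (log2 0.72, limma adjusted p = 0.337 against SAHH-WT, and -0.61, adjusted p = 0.559, for SAHH-het+betaine minus SAHH-het). Map2k2, which phosphorylates ERK, had a log2 difference of 0.53 against SAHH-WT (adjusted p = 0.387).

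**Figure D5:**
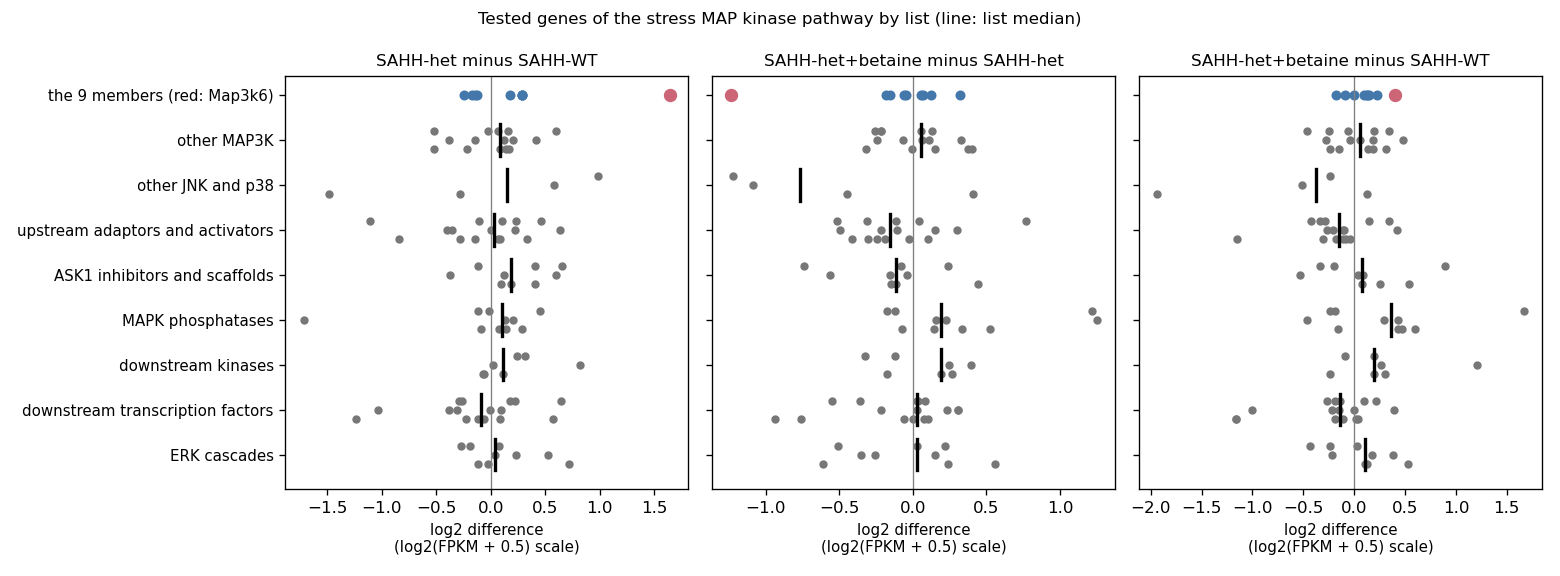
Log2 difference on the log2(FPKM + 0.5) scale (horizontal axes) of each tested gene of the pathway lists (grey points, with the list median as a black line) and of the 9 genes of the cascade (blue, Map3k6 in red) in the 3 comparisons. Map3k6 lies at 1.65, -1.24 and 0.40, and the other 8 lie between -0.25 and 0.32.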

How the data were processed

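RNA-seq of 9 libraries of mouse vascular tissue, 3 in each of 3 groups given by the labels, was analysed from 1 table of 54532 Ensembl genes. The authors deposited the values as FPKM. HISAT2 2.0.5 and the build mm10 were used, per the submitters' processing notes. The authors ran DESeq2 1.20.0, per the series' design text. As the deposited values are FPKM and not counts, limma (with a trend in the prior variance) was used here. The sources used here do not say whether counting used the strand.

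Symbols and GRCm38 positions came from the GENCODE annotation and matched 54495 genes. Values were tested as log2(FPKM + 0.5) with limma 3.58.1 in R 4.3.3, with all 3 groups in 1 fit of 6 residual degrees of freedom, for the 15610 genes whose mean reached 0.5 FPKM. P-values were adjusted by Benjamini-Hochberg over all of these, with a threshold of 0.05. Promoter windows are RefSeq sequences on GRCm38.p6. The fit was run on simulated data with independent noise, its spread per gene capped at the median of all genes. That setting is easier than these libraries, so it does not show how the fit performs on them.

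Whole fragments were worked out from the size of the FPKM steps, per gene length: 97.5 to 97.9% of the values under 1000 fragments came out whole within 0.1, and the libraries held 15837596 to 17381977 fragments. These were used for limma-voom, which called 4, 2 and 0 genes in the 3 comparisons, against 4, 3 and 0 by limma.

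The main fit had no replicate block, so its p-values treat the libraries as unpaired. Libraries of SAHH-WT and SAHH-het that share a number deviated together from their group means (r = 0.29, 0.23 and 0.18 over genes). For an alternative fit the numbers were therefore taken to pair them, from the data and not from the labels. The other same-numbered pairs had r of -0.35 to 0.08. Pairs of SAHH-WT and SAHH-het with different numbers had r of -0.33 to 0.10. Differently numbered pairs that include a SAHH-het+betaine library had r of -0.45 to 0.39. Values as high as those of the presumed pairs thus also arose without a shared number, and the pairing is not established. Alternatives were other pseudocounts, filters and scalings, the replicate block, and leaving out each library.

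The 9 genes, the pathway lists and the marker lists were chosen with earlier results of these data known. Genes named besides the 9 were the 10 nearest in profile to Map3k6, its neighbours within 50 kb, and in each pathway list and comparison up to 2 genes with the smallest p, unless said to be chosen after their values were seen.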

Additional observations from a re-analysis of the deposited data

How the results depend on the processing

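The number of the 9 genes called in SAHH-het minus SAHH-WT was 1 and became 0 with TPM rescaling, with the replicate block over all libraries and with only the 2 groups compared. With libraries left out in turn it was 0 to 1, and 1 only without SAHH-het 2. The replicate block in SAHH-WT and SAHH-het, whose numbers were taken as pairs, left it at 1 and was used for this comparison only. As Map3k6 was chosen on this comparison, these counts are no sign of stability. The other 8 genes were called in 0 of 485 values, and 25 of these changed sign. With TPM rescaling the log2 difference of SAHH-het minus SAHH-WT became -0.0037 for Map3k5, -0.020 for Map2k3, -0.011 for Map2k7 and -0.13 for Mapk14. That of SAHH-het+betaine minus SAHH-het became -0.016 for Mapk8. That of SAHH-het+betaine minus SAHH-WT became -0.15 for Map3k5, -0.29 for Map2k3, -0.26 for Map2k7, -0.24 for Mapk9 and -0.27 for Mapk14. With quantile normalization Mapk14 came to 0.010 in SAHH-het+betaine minus SAHH-het, and Map2k3 to -0.010 and Mapk8 to 0.024 in SAHH-het+betaine minus SAHH-WT. Leaving out libraries in turn gave a range of -0.0050 to 0.53 for Map3k5 in SAHH-het minus SAHH-WT. In SAHH-het+betaine minus SAHH-het it gave -0.14 to 0.013 for Map3k5, -0.24 to 0.089 for Mapk14 and -0.00044 to 0.095 for Mapk8. In SAHH-het+betaine minus SAHH-WT it gave -0.068 to 0.46 for Map3k5, -0.16 to 0.46 for Map2k3, -0.097 to 0.062 for Map2k4 and -0.52 to 0.022 for Map2k6. TPM rescaling divides each value by the FPKM sum of its library. These sums were 279298 to 455599 in SAHH-WT, 376230 to 526363 in SAHH-het and 385956 to 566309 in SAHH-het+betaine. Otherwise the cause of the sign changes was not tested. Map2k6 gave no value at a mean of at least 1 FPKM. With 3 libraries a group and 25 to 97 fragments for Map2k6, small differences were not detectable.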
